A study of Mus musculus with 19 samples.

Results

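The cytosolic ribosomal protein genes encode the proteins of the ribosome that translates messages of the nuclear genome. They were taken here by symbol, as Rpl or Rps (with Rplp for the stalk proteins) followed by a number and at most a short suffix, together with Rpsa. The rule found 87 of the 38887 genes of the deposited table. Of these, 84 are annotated as protein coding and 3 (Rps12l1, Rps4l and Rpl6l) as pseudogenes. The expression filter passed 81 of the 87. The other 6, Rpl10l, Rpl39l, Rpl3l, Rpl6l, Rps12 and Rps29, did not reach the filter's level in enough libraries.

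A ribosome is built from a large and a small subunit, each of ribosomal RNA wrapped by single copies of most of its proteins. The subunits are assembled in the nucleolus and joined on a message. Vertebrate ribosomal protein messages belong to the TOP class: they start with a run of pyrimidines that lets the growth-sensing kinase mTOR regulate their translation as a group. Growing and dividing cells make many ribosomes, whereas maturing neutrophils stop dividing and are known to make fewer.

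RNA was measured in 19 libraries of myeloid-derived suppressor cells (MDSC), cells of the myeloid lineage that can restrain T cells, from mouse spleen. The CD11b+ cells that carry Ly6G and an intermediate level of Ly6C are the neutrophil-like PMN-MDSC. Those with high Ly6C and no Ly6G are the monocyte-like M-MDSC. Newborn mice were 7 days old and adults 6 to 8 weeks old; no strain, treatment or genetic change is given in the labels. Adults gave 6 PMN-MDSC and 3 M-MDSC libraries, and newborns gave 5 of each. The title places the study around the passing build-up of these cells in newborns, so newborns are set against adults in either cell type. The 2 age effects are then compared with one another, and the 2 cell types at either age.

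Total counts ran from 827744 to 45135933 per library, and batch 1 was the shallower of the batches named in the labels. In PMN-MDSC each batch 1 library was paired with the batch 2 library of its group that was closest to it in counts. Chi-square per degree of freedom was 2.23 to 7.20 in these 5 pairs and 7.85 to 23.3 in the other 10. The batches may therefore not be independent samples there. Counts of called members and families are also given without the batch 1 PMN-MDSC libraries. Gene lists, marker lists and single families were tested only with the batch 1 PMN-MDSC libraries included. The M-MDSC libraries were not compared between batches in this way. The 12 monocyte markers separated the labelled cell types. They summed to 9170 to 13530 CPM (counts scaled to a fixed library total after TMM correction) in M-MDSC and 1143 to 2115 CPM in PMN-MDSC. The 12 neutrophil markers summed to 101800 to 114200 CPM in newborn PMN-MDSC, 10460 to 11150 CPM in adult PMN-MDSC, 3187 to 14600 CPM in newborn M-MDSC and 669 to 1163 CPM in adult M-MDSC. They separated the cell types within each age but not across ages. Newborn M-MDSC replicates 2 and 3, at 14600 and 12420 CPM, lay above every adult PMN-MDSC library. Of the 12 neutrophil markers 10 were called higher and 1 lower in newborn PMN-MDSC, so the age groups differ in neutrophil genes as well.

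Ribosomal protein genes have many near-identical copies in the genome, most of them processed pseudogenes made from their messages, and a read of 50 bp often fits several. On the GENCODE M21 annotation of GRCm38 (mm10), 73 coding members had at least 1 copy at 95% identity or more over at least 50% of the coding sequence. The 403 copies included 389 annotated pseudogenes. In the median member 54.0% of the 50-base windows of the transcript occurred elsewhere among annotated transcripts. The deposited counts followed this: 32 members had over 50% of the counts of member and copies assigned to the copies, 17 had over 90%, and 38 had under 5%. Rps12, a small subunit protein, shows the extreme. Its gene (chr10:23785183-23787275, minus strand) held 6 counts over all libraries, while the pseudogene Rps12l1 (chr7:56014016-56014414) held 92967, and their 396 coding bases have 0 mismatches. The first 60 coding bases of each are shown because they cannot be told apart by sequence:
Rps12: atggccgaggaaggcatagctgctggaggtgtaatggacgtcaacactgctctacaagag
Rps12l1: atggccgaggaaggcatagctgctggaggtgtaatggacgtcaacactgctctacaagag

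Rps7, another small subunit protein, (chr12:28630854-28635953, minus strand) held 1509 counts against 90340 for its copy Gm6472 (chrX:152909505-152910155). The copy differs at 3 of 582 coding bases, and 2 of these lie in the first 60, in capitals:
Rps7: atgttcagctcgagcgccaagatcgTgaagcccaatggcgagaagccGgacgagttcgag
Gm6472: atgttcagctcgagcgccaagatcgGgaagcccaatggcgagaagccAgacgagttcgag

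In the same way Rps6 (3569 counts), the small subunit protein phosphorylated downstream of mTOR, shares 747 coding bases with 0 mismatches with Rps6-ps4 (161842 counts). Rps27 (622 counts) shares 252 with 0 mismatches with Rps27rt (33220 counts). The deposited estimates divide such reads among the genes by a model, so the split between a member and its copies is uncertain. Each result is therefore given for the members' own counts, as deposited, and for families, each coding member summed with its copies. The family sums were added after the data were seen.

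**Figure D1:**
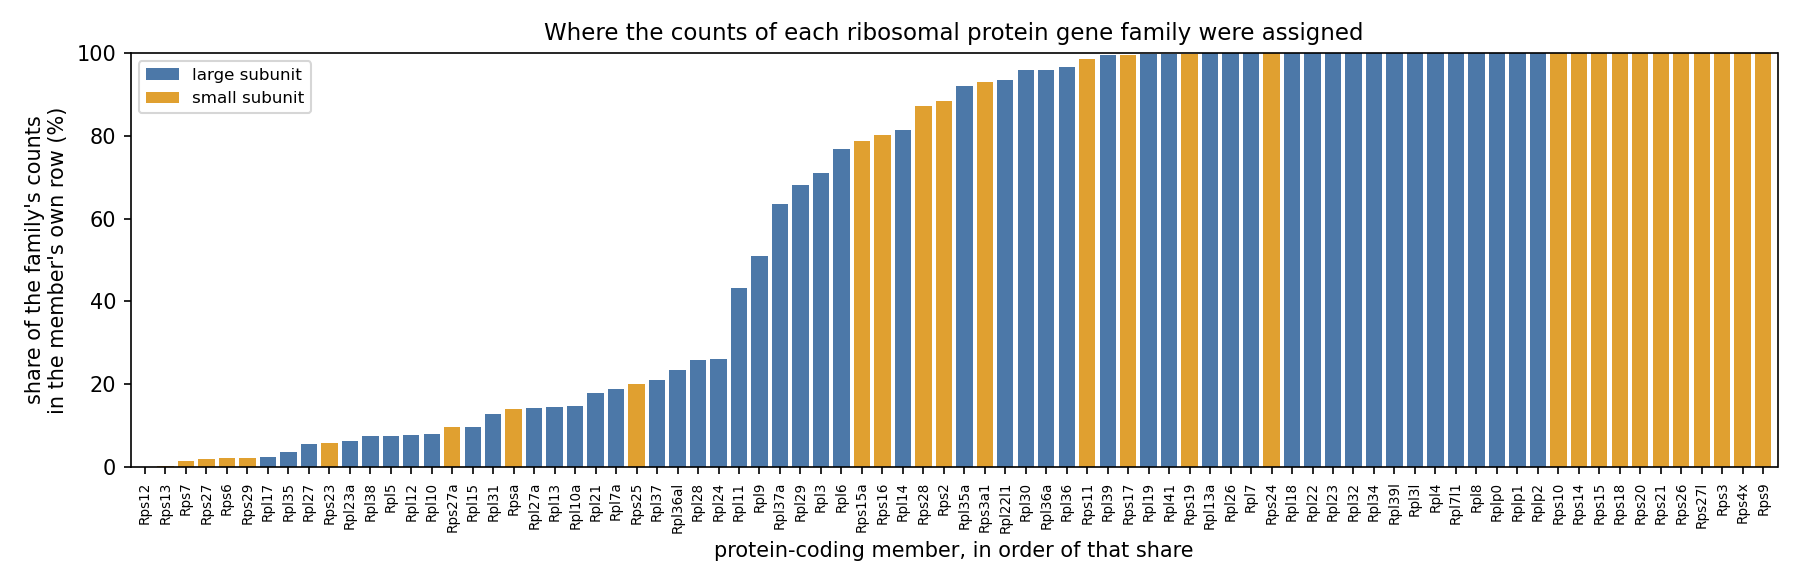
Share of each family's counts (y axis, percent) that the deposited table assigns to the member itself, for coding members with counts (x axis, in order of that share), with large subunit members in blue and small subunit members in orange. Members at the left, such as Rps12, Rps7 and Rps6, hold almost none of their family's counts, and the members at the right hold over 95%.

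The members' own counts made up the smallest share of the library in newborn PMN-MDSC. They took 1.42%, 1.65%, 2.01%, 1.36%, 1.57% and 1.90% of counts in the 6 adult PMN-MDSC libraries, a mean of 1.65% ± 0.259 (SD, n = 6). The 5 newborn PMN-MDSC libraries gave 0.729%, 0.707%, 0.689%, 0.679% and 0.777%, a mean of 0.716% ± 0.0389 (SD, n = 5). Every newborn library lay below every adult library, and the mean share in adults was 2.31 times that in newborns. In M-MDSC the 3 adult libraries gave 1.40%, 2.14% and 2.53% (mean 2.02% ± 0.572, SD, n = 3). The 5 newborn libraries gave 2.22%, 2.82%, 2.38%, 1.90% and 1.97% (mean 2.26% ± 0.371, SD, n = 5). The M-MDSC age groups overlapped.

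The ratio of newborn to adult share in PMN-MDSC was 0.424 in batch 1 and 0.445 in batch 2. In M-MDSC it was 1.40 in batch 1 and 0.765 in batch 2, where the adult group has 1 library, so the direction in M-MDSC differed between batches. The share in newborn M-MDSC was 3.15 times that in newborn PMN-MDSC (3.4 in batch 1 and 2.7 in batch 2). In adults the same ratio was 1.23, at 1.04 in batch 1 and 1.57 in batch 2 with its 1 adult M-MDSC library. With copies included the shares were higher but stood in similar ratios, at 2.57% (adult) and 1.12% (newborn) in PMN-MDSC and 3.12% (adult) and 3.53% (newborn) in M-MDSC. A share falls when other genes rise: the 16 neutrophil granule protein genes summed to 133500 CPM in newborn and 9471 CPM in adult PMN-MDSC. Without the 100 most abundant other genes, the newborn to adult ratio in PMN-MDSC was 0.497. In these bulk samples fewer cells of a type and less RNA per cell cannot be told apart. The shares are a description and were not tested.

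**Figure D2:**
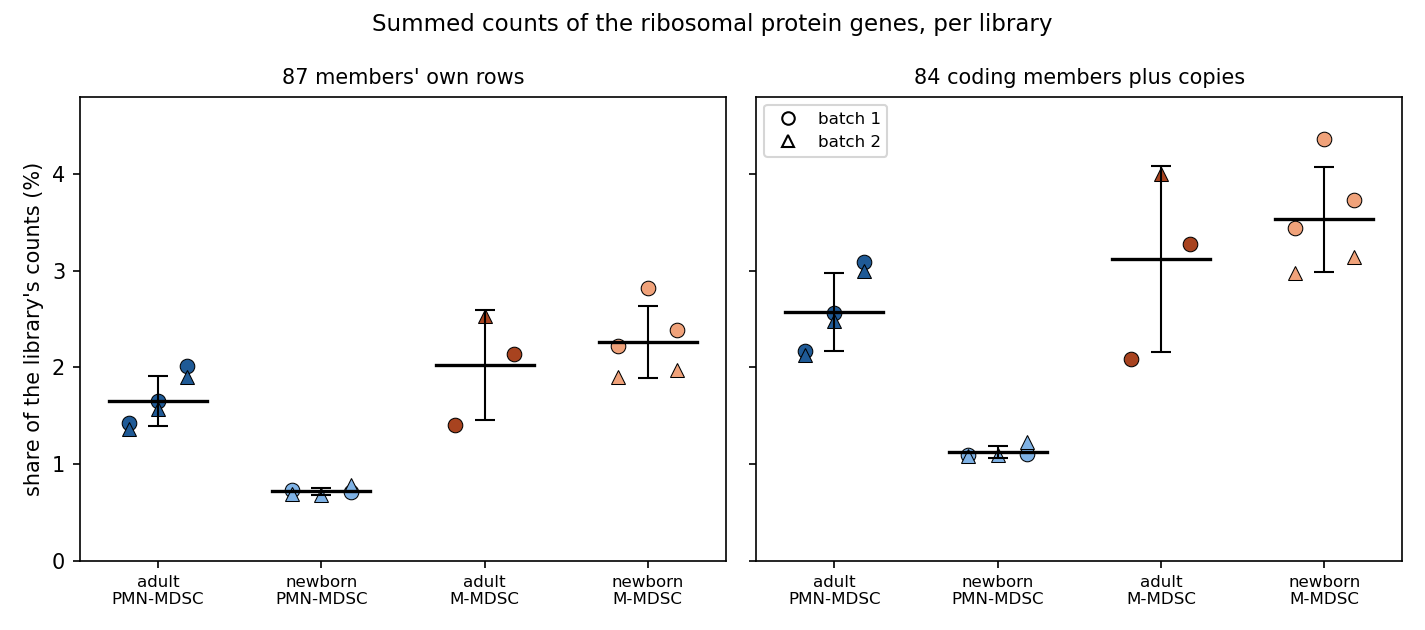
Summed counts of the ribosomal protein genes in percent of each library's counts (y axis) for the 4 groups (x axis), from the members' own counts (left) and with copies (right). Points are libraries by batch, horizontal lines are means and bars are SD; the newborn PMN-MDSC libraries sit between 0.679% and 0.777% at the left, below all others.

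Newborn PMN-MDSC had less RNA of most ribosomal proteins than adult PMN-MDSC. Of the 81 members tested, 43 were lower and 2 higher in newborns (adjusted p under 0.05 in edgeR's quasi-likelihood test), beside 20.5% of all 12943 genes tested called lower and 27.1% called higher. The median log2 fold change of the members was -0.74, against -0.05 over all genes tested. With families, 48 were lower and 1 higher, beside 20.7% and 27.2% of all genes, and the median was -0.72. The large subunit families had a median of -0.74 (28 of 49 lower) and the small subunit families of -0.68 (20 of 32 lower). Without the batch 1 PMN-MDSC libraries, 16 members were lower and 2 higher, with a median of -0.64, when 7.59% and 15.9% of all genes were called. TMM scaling set the newborn PMN-MDSC libraries to a factor of 0.784 on average and adult PMN-MDSC to 1.14. With library totals alone 65 members were lower, beside 36.3% of all genes, and the median was -1.28, when the median of all genes was -0.59.

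The spread among members narrowed once copies were added. The SD of the log2 fold changes over members was 1.29 for own counts and 0.43 for families. The 2 sets differ slightly. Rps12 and Rps29 were tested only as families, and the pseudogenes Rps12l1 and Rps4l were counted as members only on own counts. Among members with over 50% of the counts in copies the SD was 2.01 for 30 on own counts and 0.38 for 32 families. Among those with under 5% in copies it was 0.47 for both. The extreme own-count values were those of Rps27 (9.31) and Rps13 (-3.22), which have 1.8% and 0.2% of their family's counts, while the families lay between -1.55 and 0.62.

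Only 7 tested members had under 5% of their 50-base windows anywhere else, among them Rps3, Rps9, Rps20, Rpl4, Rpl8 and Rpl23. They were picked after the data were seen, because their counts depend least on how reads were divided. Rps20, at the head of the small subunit, had 128, 160 and 178 CPM (lowest, median, highest) in adult PMN-MDSC against 53.1, 65.7, 58.4, 61.8 and 72.1 CPM in newborns. It fell by 1.35 on the log2 scale (SE 0.20, adjusted p = 2.12e-05), the largest change of the 7. Rpl23, a large subunit protein known to bind Mdm2, had 121, 150 and 155 CPM in adults and 58.5, 63.6, 60.5, 63.6 and 65.1 CPM in newborns. No newborn library reached the lowest adult level of either gene. Rpl4, whose loop lines the exit tunnel, fell by 0.72 on the log2 scale (SE 0.12, adjusted p = 6.45e-05), and Rpl8 by 0.81 (SE 0.22, adjusted p = 0.00461).

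Of these genes 2 were not called. Rps3, a small subunit protein at the message entry site that also has a role in DNA repair, had 447, 516 and 575 CPM in adult and 454, 393, 423, 396 and 426 CPM in newborn PMN-MDSC, and the groups overlapped (log2 fold change -0.30, adjusted p = 0.103). Rps9 overlapped too (-0.19, adjusted p = 0.482). Rps3 was called lower with the RLE and upper-quartile scalings, with library totals, with DESeq2, on the PMN-MDSC libraries alone and without adult M-MDSC replicate 28. Rps9 was called lower with library totals and on the PMN-MDSC libraries alone.

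The proteins of the stalk, the flexible arm of the large subunit that recruits elongation factors, were not all called. Rplp1 had 244, 276 and 288 CPM (lowest, median, highest) in adult and 107, 114, 111, 119 and 120 CPM in newborn PMN-MDSC, a fall of 1.24 on the log2 scale (SE 0.21, adjusted p = 8.17e-05). Its partner Rplp2 fell by 0.87 (SE 0.20, adjusted p = 0.00144). Rpl12, at the base of the stalk, fell by 1.90 on its own counts and by 1.51 as a family (SE 0.19, adjusted p = 2.46e-06). Rplp0, the protein that anchors the stalk, had 759, 874 and 1111 CPM in adults against 753, 780, 703, 787 and 714 CPM in newborns. These ranges overlapped, and the change of Rplp0 was not called (-0.28, SE 0.19, adjusted p = 0.239), though it was with upper-quartile scaling, library totals, DESeq2 and on the PMN-MDSC libraries alone. Whether the change of Rplp0 differs from that of its partners was not tested.

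Among large subunit proteins, Rpl22, which is not needed by most cells but is required by developing lymphocytes, had 40.6, 63.2 and 69.5 CPM in adults and 19.1, 17.7, 20.8, 23.7 and 23.1 CPM in newborns. It fell by 1.51 (SE 0.23, adjusted p = 2.47e-05), with no overlap between the groups. Its paralog Rpl22l1 had 5.48 to 22.3 CPM in adults and 3.03 to 8.99 CPM in newborns and was not called (-1.34, adjusted p = 0.307). Rpl36a fell by 1.56 (SE 0.41, adjusted p = 0.004), and its paralog Rpl36al, most of whose family counts lie in a copy, was called as a family only (-0.77, adjusted p = 0.0262). Rpl13a, which can leave the ribosome to silence inflammatory messages, fell by 1.05 (SE 0.21, adjusted p = 0.000456). Rpl39, at the end of the exit tunnel, fell by 1.15 (SE 0.27, adjusted p = 0.0018). Rpl3, at the centre of peptide bond formation, fell by 0.66 on its own counts and by 1.07 as a family (SE 0.12, adjusted p = 8.97e-07), and Rpl10, the last protein to join the large subunit, by 1.43 and 0.57 (family adjusted p = 0.00497). Rpl21 fell by 1.76 on its own counts (adjusted p = 0.0406) and by 0.97 as a family (adjusted p = 0.00495); the call on its own counts was lost when any of 13 single libraries was left out.

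Rpl5 and Rpl11 join 5S ribosomal RNA in the particle that restrains Mdm2 when assembly fails. Of the counts of the Rpl5 family 92.5% lie in copies, and on its own counts Rpl5 was not called (-1.02, adjusted p = 0.0695), though it was without adult PMN-MDSC replicate 1 or newborn M-MDSC replicate 77. As a family it had 373, 450 and 529 CPM in adults and 193, 199, 226, 219 and 264 CPM in newborns, a fall of 1.05 (SE 0.11, adjusted p = 2.44e-07). Rpl11 was not called in either form (family -0.45, adjusted p = 0.115).

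In the small subunit, Rps4x fell by 0.90 (SE 0.15, adjusted p = 5.32e-05) from 601, 697 and 804 CPM in adults to 339, 348, 368, 384 and 432 CPM in newborns. Rpsa, also known as the laminin receptor, fell by 0.64 (SE 0.21, adjusted p = 0.017) and by 0.59 as a family. Rps19, the gene most often mutated in Diamond-Blackfan anaemia, fell by 0.76 (SE 0.24, adjusted p = 0.0129). Rps23, at the decoding centre, fell by 1.56 on its own counts and 0.67 as a family (adjusted p = 0.00553). Rps6 had only 3.29 to 19.9 CPM of its own in adults. As a family it had 589, 670 and 720 CPM in adults and 381, 370, 407, 378 and 433 CPM in newborns, a fall of 0.75 (SE 0.13, adjusted p = 7.66e-05). Rps27a, made as a fusion with ubiquitin, fell by 1.08 on its own counts (adjusted p = 0.0246) and was not called as a family (-0.24, adjusted p = 0.293).

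The members called higher in newborn PMN-MDSC were Rps27 and Rpl7l1. Rps27 had 0 counts in all 6 adult libraries and 0, 7.35, 12.4, 9.01 and 0.986 CPM in newborns, and its fitted fold change depends on the prior count. Its family was lower in newborns (-1.08, SE 0.33, adjusted p = 0.0101). Rpl7l1, a paralog of Rpl7 known from ribosome assembly rather than from the finished ribosome, had 50.4, 56.7 and 60.3 CPM in adults and 82.1, 86.9, 82.7, 86.8 and 76.5 CPM in newborns. All newborn libraries lay above all adult libraries, and the log2 fold change was 0.57 ± 0.13 (SE, adjusted p = 0.00118). Rpl7 itself fell by 0.67 (SE 0.17, adjusted p = 0.00315). Rpl7l1 was not called with library totals alone, nor in batch 1 alone. Rps27l, a target of p53, had 7.67 to 15.4 CPM in adults and 15.1 to 18.4 CPM in newborns and was not called (0.63, adjusted p = 0.0797), except without adult PMN-MDSC replicate 33.

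The calls of Rpl3, Rpl8, Rpl21, Rpl36a, Rplp2, Rps19, Rps27a and Rpsa were lost without the batch 1 PMN-MDSC libraries. Those of Rpl4, Rpl12, Rpl13a, Rpl22, Rpl23, Rplp1, Rps4x, Rps20 and Rpl7l1 were kept. The call of Rps27a was also lost without adult PMN-MDSC replicate 2 and without newborn PMN-MDSC replicate 3 or 39, and that of Rpsa without newborn PMN-MDSC replicate 3. Of other paralogs, Rpl10l had no counts in any library, Rpl39l had 5 counts in all and Rpl3l 73. Rps4l, a pseudogene, had 1.84 to 5.48 CPM in adult and 7.42 to 10.9 CPM in newborn PMN-MDSC and was not called (1.74, adjusted p = 0.144), except without newborn M-MDSC replicate 77.

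**Figure D3:**
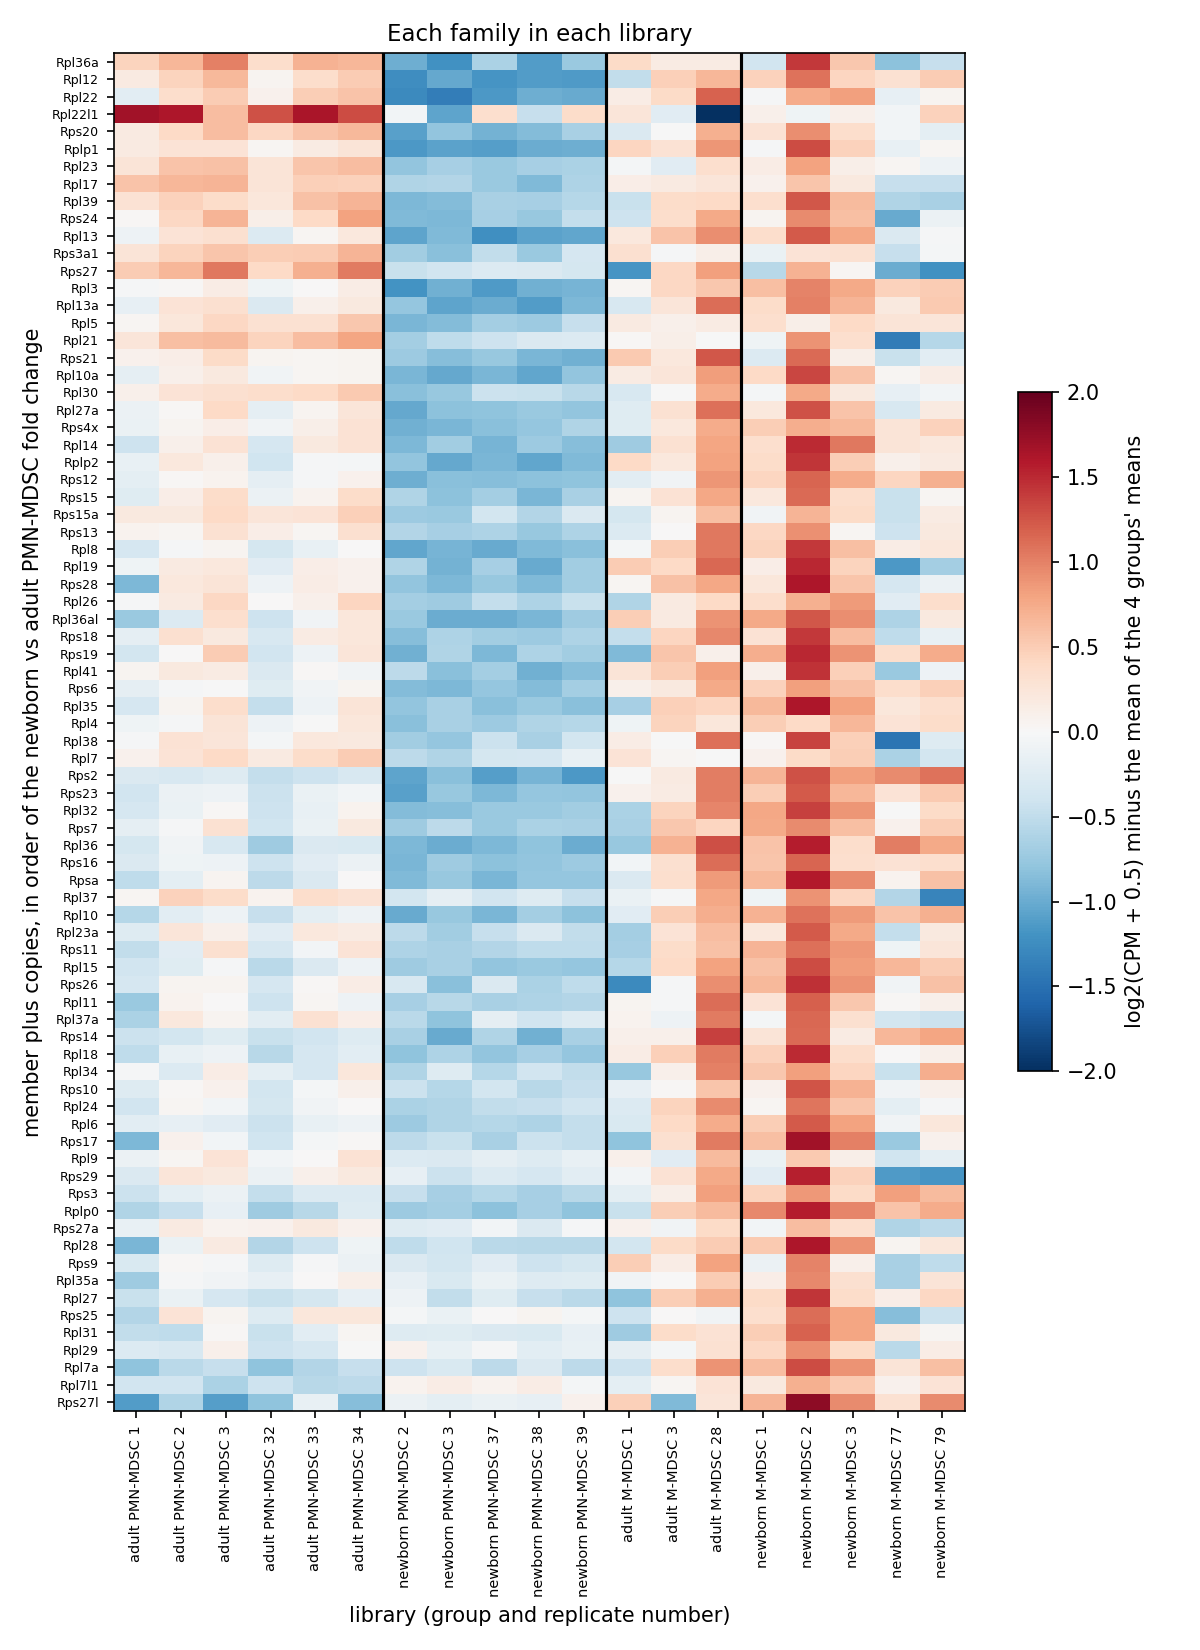
Level of tested families (y axis, in order of its PMN-MDSC age effect) in each of the 19 libraries (x axis), as log2(CPM + 0.5) minus the mean of the 4 groups' means, from blue (low) to red (high). The 5 newborn PMN-MDSC libraries are blue for most families and near white for Rpl7l1 at the bottom, and newborn M-MDSC replicate 2 is the reddest library.

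Markers of other cells moved with age in the same libraries. The 13 B cell markers summed to 4882 to 7645 CPM in adult and 1061 to 1361 CPM in newborn PMN-MDSC, and 12 of the 13 were called lower. The 18 erythroid markers summed to 216 to 527 CPM in adults and 3268 to 5732 CPM in newborns, and 15 were called higher. The 12 monocyte markers, whose cell type has the larger ribosomal protein share here, summed to 1390 to 2115 CPM in adults and 1143 to 1359 CPM in newborns, with 7 called lower and 3 higher (median log2 fold change -1.33). Of 7 plasma cell markers 6 were lower (885.7 to 1368 CPM summed in adults, 261 to 340 CPM in newborns), as were 4 of 16 T and NK cell markers (72.4 to 177 and 48.9 to 80.5 CPM) and 3 of 12 dendritic cell and macrophage markers (1042 to 2393 and 1033 to 1333 CPM). No marker of these 6 lists was at 0 in these groups. Their part in the result was not tested.

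In M-MDSC few members differed by age. Of 81 members, 6 were called higher and 0 lower (edgeR's quasi-likelihood test, with 8 and 3 at an unadjusted p under 0.05), beside 15.9% and 14.3% of all genes. DESeq2 called 6 higher and 1 lower, beside 16.7% and 19.4%. The share of members called higher was below that of all genes. The median log2 fold change was 0.12, against 0.01 over all genes. With families 3 were higher and 0 lower, with 9 and 0 at an unadjusted p under 0.05, beside 15.9% and 14.5% of all genes. These 3 were Rplp0, Rps19 and Rps27l.

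Rplp0 had 916, 1758 and 1936 CPM in the adult M-MDSC libraries and 2421, 3685, 2440, 1848 and 2084 CPM in the newborn ones, so 1 newborn library lay within the adult range (log2 fold change 0.69, SE 0.23, adjusted p = 0.0314). Rps19 had 121, 332 and 245 CPM in adults and 375, 652, 426, 292 and 380 CPM in newborns, with 1 newborn library inside the adult range (0.86, SE 0.29, adjusted p = 0.0311). Rps27l had 24.1, 9.13 and 20.4 CPM in adults and 27.9, 60.9, 33.8, 21.4 and 33.8 CPM in newborns (0.98, SE 0.35, adjusted p = 0.0435). These 3 calls were lost with upper-quartile scaling. Those of Rplp0 and Rps19 were lost without newborn PMN-MDSC replicate 37, adult M-MDSC replicate 1 or newborn M-MDSC replicate 2 or 3, and that of Rps27l without any of 14 single libraries.

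Other members called higher included Rpl17 and Rpl15. Rpl17 had 0 counts in every adult M-MDSC library and in 3 newborn ones, and 24.6 and 9.62 CPM in newborn replicates 1 and 79; its family was not called (-0.18, adjusted p = 0.438). Rpl15 (0.89, adjusted p = 0.0421) was not called as a family (0.48, adjusted p = 0.13). The calls of Rpl17 and Rpl15 were lost without any of 13 and 15 single libraries. Rpl5, Rps4x, Rpl7 and Rps20 were not called in either form.

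Single libraries and batches decided these counts. Without adult M-MDSC replicate 28, the 1 adult library of batch 2, 15 members were called higher and 1 lower, beside 16.0% and 16.7% of all genes. Without newborn M-MDSC replicate 2, 3 were higher and 7 lower, beside 12.4% and 12.7% of all genes. Without newborn PMN-MDSC replicate 37 there was 1 higher, beside 13.1% of all genes. There were 3 without adult PMN-MDSC replicate 34, newborn PMN-MDSC replicate 38 or 39, or newborn M-MDSC replicate 3 or 79. The shares of all genes called higher in these fits were 11.1% to 15.4%. In batch 1 alone 12 were higher and 1 lower, beside 13.5% and 14.3% of all genes, with a median of 0.57 against -0.01 over all genes. In batch 2 alone 5 of 83 were higher and 18 lower, beside 16.5% and 7.48%, with a median of -0.56 against 0.19 over all genes. Batch 2 then rests on 1 adult library, which is assumed to vary like the other groups. Fitted on the M-MDSC libraries alone, 0 were higher and 0 lower, beside 6.15% and 5.57% of all genes. B cell markers summed to 1166 to 2796 CPM in adult and 319 to 494 CPM in newborn M-MDSC, with 12 of 13 called lower. Erythroid markers summed to 78.4 to 544 CPM in adults, with Klf1 at 0, and 41.4 to 2936 CPM in newborns, and none of 18 was called. Of the other marker lists, 13 of 16 T and NK cell, 6 of 7 plasma cell, 6 of 12 dendritic cell and macrophage and 4 of 12 monocyte markers were called lower in newborns, and 1 monocyte and 9 of 12 neutrophil markers higher. Their part in the result was not tested.

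**Figure D4:**
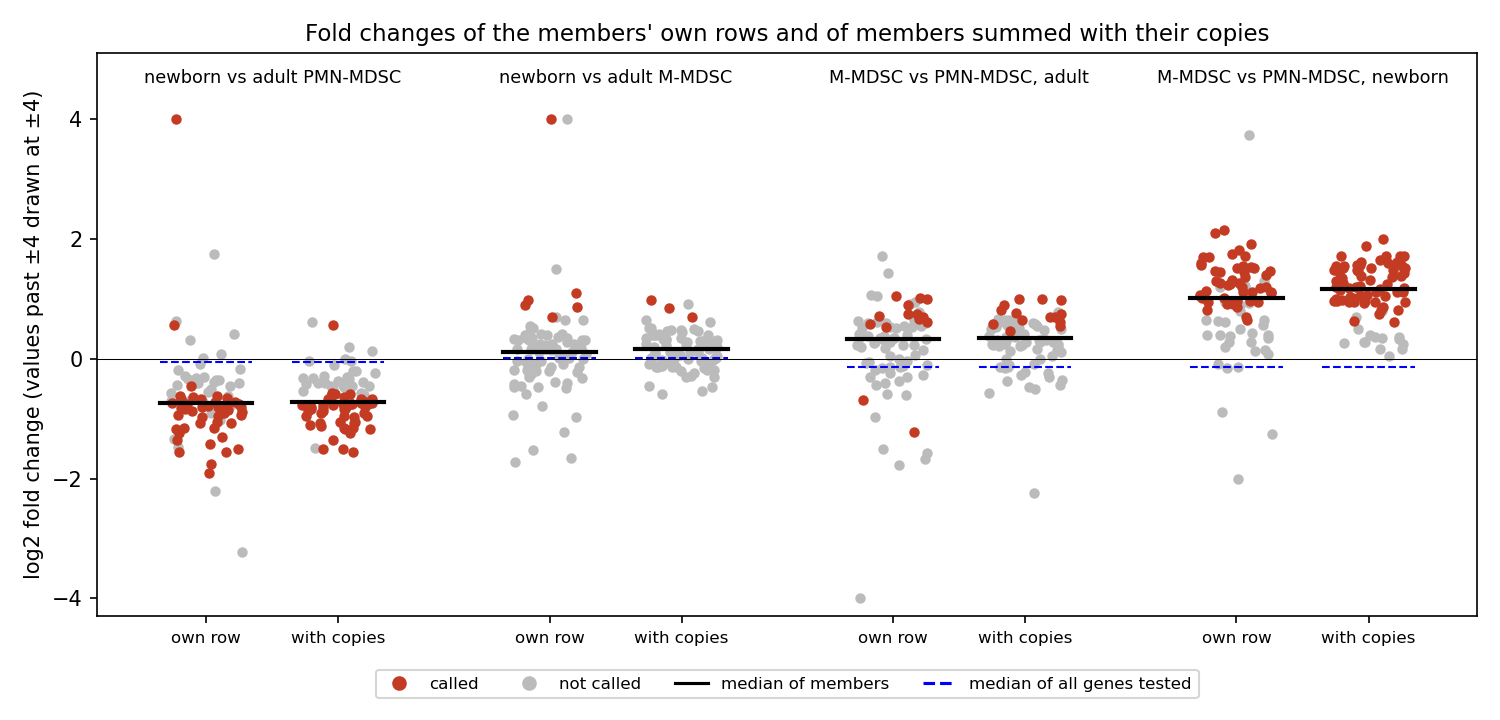
Log2 fold changes (y axis) of the tested members in 4 comparisons (x axis), from own counts and with copies; red points passed the test, black lines are the members' medians and dashed blue lines the medians of all genes tested. Values past 4 or -4 are drawn at the edge. With copies the medians were -0.72, 0.16, 0.35 and 1.17 from left to right, and the points drew together.

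In the fit of both batches together, the age effect itself differed between the cell types. The single batches did not give the same picture, as described below. In the test of the difference, M-MDSC minus PMN-MDSC, 22 members were called higher and 0 lower, with 39 and 0 at an unadjusted p under 0.05 in edgeR's quasi-likelihood test, beside 6.61% and 11.5% of all genes. DESeq2 called 34 and 0, beside 11.1% and 12.7% of all genes. The members' median was 0.84, against -0.06 over all genes. With families 34 were called higher and 0 lower, beside 6.67% and 11.6%, and 79 of 81 lay above 0. Large differences among the called members included those of Rps19 (1.62, SE 0.37, adjusted p = 0.00506), Rpl15 (1.61, adjusted p = 0.0095), Rps20 (1.45, adjusted p = 0.00331), Rpl23 (1.36, adjusted p = 0.000792) and Rpl39 (1.32, adjusted p = 0.0389).

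Of the 7 members with few shared windows, 4 were called, among them Rps20, Rpl23 and Rpl4 (0.95, adjusted p = 0.00151). Rpl8 (0.86, adjusted p = 0.0854) and Rps3 (0.63, adjusted p = 0.0687) were not, and Rps9 had a value of -0.26 (adjusted p = 0.659). All 3 stalk proteins were called, Rplp0 at 0.97, Rplp1 at 1.1 and Rplp2 at 0.95 (adjusted p = 0.0303, 0.0247 and 0.0409). Rps4x was called at 1.14 (adjusted p = 0.00186), Rpl22 at 1.2 (adjusted p = 0.0235), Rpl13a at 1.17 (adjusted p = 0.0194) and Rpl3 at 1.02 (adjusted p = 0.0203). As families Rpl12 (1.80, adjusted p = 0.000311), Rpl5 (1.16, adjusted p = 0.000107) and Rps6 (0.92, adjusted p = 0.00312) were called too. Rpl7l1 had a value of -0.25 and was not called (adjusted p = 0.429).

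The count of 22 became 5 without the batch 1 PMN-MDSC libraries, beside 1.35% of all genes called higher. In batch 2 alone, which has 1 adult M-MDSC library, 8 of 83 members were higher and 2 lower, beside 13.6% and 9.85% of all genes. The members' median there was 0.12, below the 0.57 of all genes, and the families' median was 0.00. In batch 1 alone 13 were higher and 1 lower, beside 1.22% and 2.19%, with a median of 1.29 against -0.07 over all genes. The count was 35 without adult M-MDSC replicate 28, beside 6.35% of all genes. Among the 5 calls kept without the batch 1 PMN-MDSC libraries were those of Rps2, Rps20 and Rpl23; those of Rpl3, Rpl4, Rpl13a, Rpl15, Rpl22, Rpl39, Rps4x, Rps19 and the stalk proteins were lost. Leaving out adult M-MDSC replicate 1 ended the calls of Rpl13a, Rpl22, Rpl39, Rplp0, Rplp1 and Rplp2, as did leaving out adult M-MDSC replicate 3 for all of these but Rplp0. Other single libraries also ended the calls of Rpl22 (newborn PMN-MDSC replicate 3), Rplp1 (newborn PMN-MDSC replicates 2 and 3) and Rplp0 (adult PMN-MDSC replicates 3 and 34, newborn PMN-MDSC replicates 2 and 3). Those of Rpl39 and Rplp2 were lost without any of 12 and 11 libraries. Across the 81 families the age effects of PMN-MDSC and M-MDSC had a Pearson r of 0.296. The points share libraries, batch term and scaling, so this is a description.

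**Figure D5:**
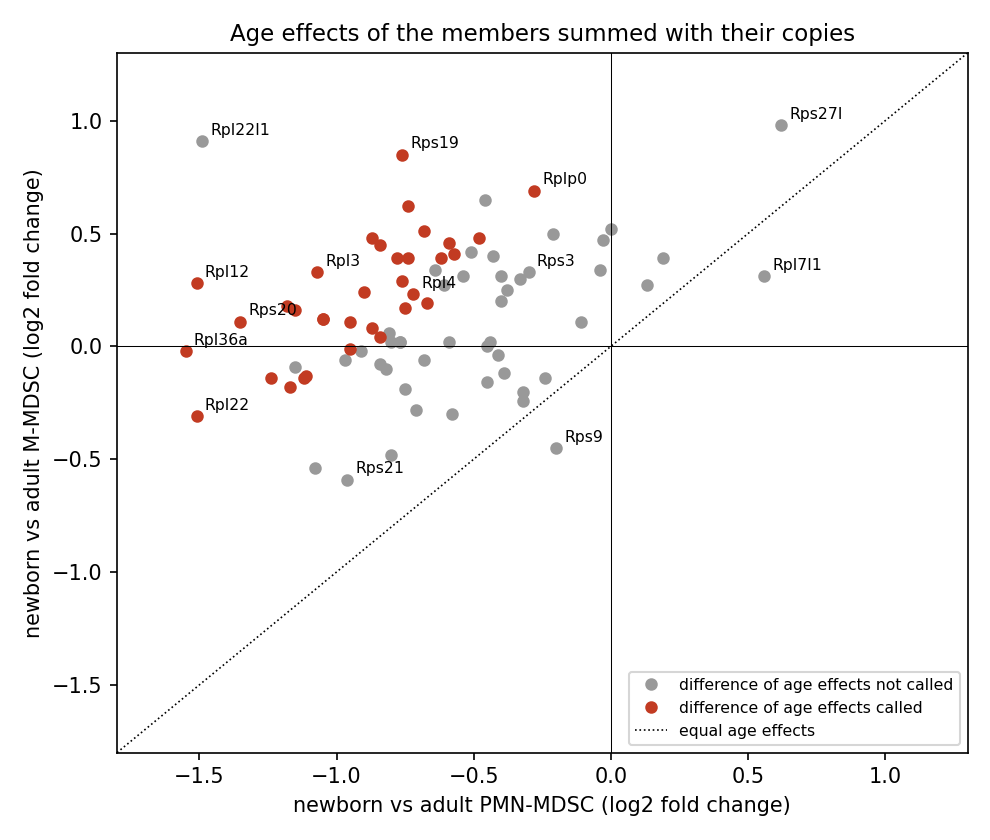
Age effect of each family in PMN-MDSC (x axis) and M-MDSC (y axis), both log2 fold changes of newborn against adult; red families passed the test of the difference and the dotted line marks equal effects. Of the 81 families 79 lie above the line, Rpl7l1 and Rps9 being below it.

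In newborns M-MDSC had more RNA of most members than PMN-MDSC. Of 81 members 49 were called higher and 0 lower (53 and 0 at an unadjusted p under 0.05 in edgeR's quasi-likelihood test), beside 18.7% and 23.4% of all genes. DESeq2 called 52 and 0, beside 21.2% and 26.0%. The median log2 fold change was 1.02, against -0.13 over all genes. With families 66 were higher and 0 lower, beside 18.8% and 23.5%, and all 81 lay above 0. Rps2, at the message entry site of the small subunit, had 304, 362, 285, 335 and 301 CPM in newborn PMN-MDSC and 966, 1558, 1144, 1056 and 1219 CPM in newborn M-MDSC. It was higher by 1.92 on the log2 scale (SE 0.17, adjusted p = 6.22e-08) and Rpl3 by 1.75 (adjusted p = 1.39e-06). Rplp0 was higher by 1.71 (SE 0.20, adjusted p = 2.32e-06), and for each of these genes all newborn M-MDSC libraries lay above all newborn PMN-MDSC libraries. Rps23 (2.14, adjusted p = 0.000701), Rpl36 (2.10, adjusted p = 4.18e-05) and Rpsa (1.81, adjusted p = 3.39e-06) were also among the largest. Rps9, Rpl7 and Rpl7l1 were not called (0.35, 0.39 and 0.28, adjusted p = 0.244, 0.1 and 0.101). Without the batch 1 PMN-MDSC libraries 27 were higher and 1 lower, beside 7.74% and 19.3% of all genes, and in batch 2 alone 30 and 3 of 83, beside 9.31% and 20.7%. Markers of other cells differed as well: 13 of 13 B cell, 11 of 18 erythroid and 6 of 12 dendritic cell and macrophage markers were called lower in newborn M-MDSC. The B cell markers summed to 319 to 494 CPM in M-MDSC and 1061 to 1361 CPM in PMN-MDSC, the erythroid markers to 41.4 to 2936 and 3268 to 5732 CPM, and the dendritic cell and macrophage markers to 222 to 359 and 1033 to 1333 CPM. Of plasma cell markers 2 of 7 were higher and 2 lower, and of T and NK cell markers 1 of 16 was higher and 1 lower. No marker of these 5 lists was at 0 in the newborn groups. Their part in the result was not tested.

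In the fit of both batches together, the 2 cell types were closer in adults. Of 81 members, 12 were called higher in M-MDSC and 2 lower, beside 16.7% and 12.5% of all genes, and the median was 0.33 against -0.13 over all genes. The count called higher is near the share of all genes and the count called lower is below it. With families 14 were higher and 0 lower, with 29 and 3 at an unadjusted p under 0.05 in edgeR's test, beside 16.8% and 12.6%. Rpl36 (1.04, adjusted p = 0.0249), Rpsa (1.02, adjusted p = 0.00285), Rps14, a protein of the small subunit platform (1.00, adjusted p = 0.00269), Rpl18 (0.90, adjusted p = 0.0114), Rplp0 (0.74, adjusted p = 0.0139) and Rps2 (0.74, adjusted p = 0.00458) were the largest on own counts. Rpsa holds 14% of its family's counts. As a family it had 674.4 to 1007 CPM in adult PMN-MDSC and 787.8, 1217 and 1737 CPM in adult M-MDSC. Rpl15 (-1.23, adjusted p = 0.00681) was called lower, but its family lay above 0 (0.58) and was not called.

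Adult M-MDSC replicate 28 decided the adult comparison. Rps14 had 557 and 552 CPM in the other 2 adult M-MDSC libraries and 1330 CPM in replicate 28, against 378 to 438 CPM in adult PMN-MDSC. Without it 1 member was called higher and 2 lower, beside 10.0% and 6.90% of all genes, and the median was -0.07. All the calls named here except that of Rpl15 were lost without it. Without adult M-MDSC replicate 3 those of Rpl36 and Rplp0 were lost too, as was that of Rpl36 without adult PMN-MDSC replicate 32. The count called lower was 4 without adult PMN-MDSC replicate 1 or newborn M-MDSC replicate 1 or 3, beside 10.6% to 12.4% of all genes. It was 5 without newborn M-MDSC replicate 2, beside 14.1%. Batch 1 alone gave 1 and 0, beside 6.5% and 4.92% of all genes, and batch 2 alone 27 and 7 of 83, beside 11.5% and 24.0%. Leaving out the batch 1 PMN-MDSC libraries gave 3 and 2, beside 7.32% and 7.79%. In batch 2 alone, which has 1 adult M-MDSC library, adults were not the closer. The members' median of M-MDSC against PMN-MDSC was 0.55 in adults and 0.45 in newborns there. The medians of all genes were -1.04 and -0.44. In adult M-MDSC 12 of 13 B cell and 6 of 12 dendritic cell and macrophage markers were called lower than in adult PMN-MDSC. Of the others, 1 of 18 erythroid markers was lower, and 3 of 7 plasma cell and 1 of 16 T and NK cell markers were higher. Their part in the result was not tested. The adult PMN-MDSC libraries entered both this comparison and the PMN-MDSC age comparison.

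Levels per length put the families in an order. Over the mean of the 4 groups, the highest per kilobase of coding sequence were Rpl41 at 3003 CPM per kb, Rplp0 at 1498, Rpl10 at 1326 and Rps14 at 1288 CPM per kb. The coding sequence of Rpl41 has only 75 bases, so reads of its untranslated ends weigh more in its value. By own counts the first were Rpl41 (2998 CPM per kb), Rplp0 (1497), Rps14 (1287) and Rpl13a (1213), and Rpl10 stood at 124 CPM per kb, since most of its counts lie in copies. Rplp0 as a family had 961 and 785 CPM per kb in adult and newborn PMN-MDSC, and 1618 and 2627 CPM per kb in the corresponding M-MDSC.

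The start sites of the genes were searched for a TOP start, read on the transcript's strand as a C at the first base followed by at least 4 bases that are all C or T. RefSeq promoters (GRCm38.p6) were matched for 64 members by symbol. Of these, 13 (20.3%) had the start, as did 813 of 27025 genes (3.01%) in the same table. The annotated first base can be off by some bases, so no match says only that these letters are not at that position. The 5 longest runs, in capitals from the first transcribed base with 15 bases before it, lie at chr14:18270972-18271001, chr2:39005117-39005146, chr17:27635230-27635259, chr17:33955651-33955680 and chr4:86857353-86857382, all on the minus strand:
Rpl15: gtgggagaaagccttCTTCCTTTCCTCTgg
Rpl35: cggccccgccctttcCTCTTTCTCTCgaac
Rps10: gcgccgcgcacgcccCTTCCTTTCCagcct
Rps18: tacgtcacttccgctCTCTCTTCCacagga
Rps6: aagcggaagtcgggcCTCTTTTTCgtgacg

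These 5 genes were chosen for their start sites after their values were seen. As families, Rps18 (-0.77, adjusted p = 0.0316), Rpl35 (-0.74, adjusted p = 0.0159) and Rps6 were called lower in newborn than in adult PMN-MDSC, while Rps10 (-0.40, adjusted p = 0.12) and Rpl15 (-0.48, adjusted p = 0.0505) were not called. On own counts Rps18 (-0.77, adjusted p = 0.0316) and Rpl15 (-0.72, adjusted p = 0.0257) were called lower, and Rpl35 (-0.56, adjusted p = 0.609), Rps10 (-0.40, adjusted p = 0.123) and Rps6 (0.32, adjusted p = 0.739) were not. The call of Rpl15 was lost without any of 5 single libraries and without the batch 1 PMN-MDSC libraries (-0.87, adjusted p = 0.1).

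Other genes that serve the ribosome were read from lists. They are to be set beside the 20.5% of all genes called lower and 27.1% called higher in newborn PMN-MDSC, with a median of -0.05. Whether the calls in these lists hold without the batch 1 PMN-MDSC libraries was not tested. Of 77 ribosome biogenesis genes, 47 were lower and 4 higher in newborn PMN-MDSC (median -1.12), among them the helicase Ddx21 (-1.82, SE 0.15, adjusted p = 1.76e-08), the nucleolar protein Mybbp1a (-1.39, adjusted p = 1.46e-07) and Npm1 (-1.87, adjusted p = 3.75e-06). Of 19 genes of RNA polymerase I and its factors 8 were lower and 1 higher (median -0.86); Polr1b fell by 1.31 (adjusted p = 0.000143), while Polr1a, the largest subunit, rose by 0.74 (adjusted p = 0.000123). Of 27 elongation factors and other TOP messages 15 were lower and 2 higher (median -0.43). Eef1a1, which brings transfer RNA to the ribosome, had 4024 ± 243 CPM (SD, n = 6) in adult and 2212 ± 111 CPM (SD, n = 5) in newborn PMN-MDSC (log2 fold change -0.87, adjusted p = 4.01e-06). Rack1 stands in the table as Gnb2l1, a small subunit protein outside the naming rule, and fell by 0.73 (adjusted p = 0.00308).

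Of 26 initiation factors 5 were higher and 6 lower in newborn PMN-MDSC, with a median of -0.12. Of 75 mitochondrial ribosomal proteins 8 were higher and 4 lower (median 0.05), both below those shares. Their encoded ribosome is a separate one, which translates the messages of the mitochondrial genome. Among 27 regulators of ribosome production 11 were higher and 5 lower, with a median of 0.32. Myc, the transcription factor that drives ribosome genes, was 1 of the 5 lower, at 104 ± 17.2 CPM (SD, n = 6) in adult and 14.7 ± 2.81 CPM (SD, n = 5) in newborn PMN-MDSC (-2.79, SE 0.24, adjusted p = 1.8e-08). Myc was also lower in newborn than in adult M-MDSC (-1.64, SE 0.27, adjusted p = 0.000146), where 0 members were called lower. In newborns, M-MDSC against PMN-MDSC gave 42 biogenesis genes higher and 2 lower of 77, and 25 mitochondrial ribosomal proteins higher and 0 lower of 75, beside 18.7% and 23.4% of all genes.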

How the data were processed

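The 19 libraries came from a total RNA kit and were sequenced from 1 end over 50 bp, as the labels' protocols state. The authors deposited 1 table of expected counts per gene, not normalized and in whole numbers. Per the submitters' processing notes, the tools were RSEM 1.2.3, on build mm10, and DESeq2 in a role not stated. Which aligner and gene annotation were used is not given in the sources at hand. Every count column was matched to 1 sample, and 852 genes with an identifier but no symbol stayed in the library sizes and tests. The labels do not tie replicates to different mice. The p-values thus reflect library-to-library spread, part or all of which could be technical.

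The main test was edgeR's quasi-likelihood F test (version 4.0.16, R 4.3.3). One model held all 19 libraries with group and batch, TMM scaling and edgeR's expression filter, leaving 12943 genes and 14 residual degrees of freedom. Adjusted p-values are Benjamini-Hochberg values over all genes of a comparison, and under 0.05 was called. CPM are counts scaled to a fixed library total after TMM correction. A count of 0 in a library allows 3 counts, which is 0.0601 to 3.29 CPM, covering counting error only. The fits were tested on simulated data.

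Copies were found by alignment of the coding members' transcripts to GENCODE M21 transcripts (GRCm38), at 95% identity or more. The alignments had to cover at least 50% of the member's coding sequence and 50% of the copy's transcript. A copy that matched several members went to the one with the highest summed alignment score. Sequences came from that annotation's transcripts and, for start sites, from RefSeq (GRCm38.p6).

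Members and lists were chosen with earlier results of these data known. Members named are the 6 largest called changes per direction and comparison, the 3 farthest from the median on each side, fixed paralogs, stalk and other known members, and the 5 highest per length; from other lists, the 3 smallest adjusted p and a fixed set. Those named for few shared windows or for start sites were chosen after their values were seen. Some members are not reported by name here. Alternatives were other scalings, filters, DESeq2 1.42.0, single batches, a replicate block, fewer libraries, and sums with copies.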

Additional observations from a re-analysis of the deposited data

Results flagged for a closer look

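In 19 of 137 groups of 4 to 10 libraries examined for named members (13.9%), 1 library stood apart from the others by Dixon's 95% criterion. A chance rate of about 1 in 20 groups holds only for independent, normally distributed values. Here the members share libraries. Some values also stand against 0 in every other library of the group, as for Rps27 in newborn M-MDSC and for Rps13. The 13.9% can therefore not be compared with that rate. Newborn M-MDSC replicate 2 was the one that stood apart for 8 members, above the others each time: Rpl8 at 1100 CPM, Rpl18 at 720.9 CPM, Rplp2 at 585.6 CPM, Rpl23 at 177 CPM, Rps23 at 83.38 CPM, Rpl12 at 48.1 CPM, Rpl36a at 39.12 CPM and Rps27 at 36.56 CPM. Newborn M-MDSC replicate 3 stood apart for Rps13 (7.876 CPM) and Rpl39l (0.4633 CPM). In adult PMN-MDSC replicate 3 stood apart for Rps23 (30.59 CPM) and Rps13 (5.398 CPM), and replicate 1 for Rpl5 (4.385 CPM). In newborn PMN-MDSC replicate 39 stood apart for Rps27l (18.44 CPM), Rpl5 (13.05 CPM) and Rps7 (5.741 CPM), replicate 3 for Rps23 (20.32 CPM), replicate 2 for Rpl3l (2.189 CPM) and replicate 37 for Rpl39l (0.03333 CPM).

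The age effect of 14 named members was called different between M-MDSC and PMN-MDSC in edgeR's test of the difference. Of all genes, 6.61% were called higher and 11.5% lower in that test. The log2 differences, M-MDSC minus PMN-MDSC, were 1.62 for Rps19, 1.61 for Rpl15, 1.45 for Rps20, 1.36 for Rpl23, 1.32 for Rpl39, 1.2 for Rpl22, 1.18 for Rps2 and 1.17 for Rpl13a. They were 1.14 for Rps4x, 1.1 for Rplp1, 1.02 for Rpl3, 0.97 for Rplp0, and 0.95 for both Rpl4 and Rplp2. Of these calls, only those of Rps2, Rps20 and Rpl23 were kept without the batch 1 PMN-MDSC libraries. In batch 2 alone, which has 1 adult M-MDSC library, the members' median difference was 0.12, against 0.57 over all genes.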

How the results depend on the processing

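Of the values of named members under other settings, 6422 either kept call and direction or stayed uncalled. Of these, 283 were uncalled both times and changed sign. The threshold was newly passed by 236 and no longer by 282, and 22 that were called at least once changed sign. The 6422 mix kept calls with values never called, and many settings leave out only 1 library. They therefore do not say how many calls held. Counts below are of members higher, then lower, as in the report unless one direction is named. Other scalings mattered most for M-MDSC age, with 3 higher and 1 lower under RLE, beside 13.9% and 16.5% of all genes. Upper-quartile scaling gave 2 higher there, beside 14.2%. Library totals gave PMN-MDSC age 1 and 65, beside 14.8% and 36.3%. They gave M-MDSC age 1 lower, beside 14.1%, and the difference 45 higher, beside 15.5%. The median of all genes in PMN-MDSC age was -0.05 with TMM, -0.22 with RLE, -0.29 with upper-quartile scaling and -0.59 with totals. Without the expression filter 4 were lower in the adult and 1 in the newborn cell type comparison. DESeq2 gave 1 lower for M-MDSC age, 34 higher for the difference and 5 lower in adults, beside 19.4%, 11.1% and 19.9% of all genes. Fits on the compared groups alone gave 0 higher for M-MDSC age and 1 lower in newborns, beside 6.15% and 22.2% of all genes. Batch 1 alone gave PMN-MDSC age 0 and 24, M-MDSC age 12 and 1, the difference 13 and 1, adults 1 and 0, and newborns 1 lower. Batch 2 alone gave M-MDSC age 18 lower, the difference 8 and 2, adults 27 and 7, and newborns 30 and 3. Without the batch 1 PMN-MDSC libraries the counts were 16 lower for PMN-MDSC age, 2 higher for M-MDSC age, 5 higher for the difference, 3 higher in adults, and 27 and 1 in newborns.

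Whether replicate numbers pair the samples could not be settled with 2 or 3 libraries per group in batch 1. Deviations of the 12 same-numbered pairs correlated at -0.0472 to 0.1815 (median 0.0496). Those of the 25 other pairs correlated at -0.1815 to 0.075 (median -0.0144). The highest values were those of adult PMN-MDSC with adult M-MDSC, at 0.176 for replicate 1 and 0.1815 for replicate 3. A fit with the replicate number as a block in batch 1 gave PMN-MDSC age 0 higher and 38 lower, M-MDSC age 14 and 1, the difference 24 and 1, adults 1 and 0, and newborns 59 and 1.

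The family sums were chosen after the data were seen. Adding pseudogenes named for a member gave 1 lower in adults and shares of 2.09%, 0.916% and 2.93% in adult PMN-MDSC, newborn PMN-MDSC and newborn M-MDSC. Families gave PMN-MDSC age 1 higher, M-MDSC age 3 higher, the difference 34 higher, adults 0 lower, and shares of 2.57%, 1.12%, 3.12% and 3.53% in adult and newborn PMN-MDSC and adult and newborn M-MDSC. Families with RLE gave 1 higher for each age comparison and 35 for the difference. Families with totals gave PMN-MDSC age 0 and 77, beside 14.9% and 36.4% of all genes. They gave M-MDSC age 2 higher, the difference 59 higher and newborns 77 higher, beside 14.6%, 15.5% and 30.5%. Families in batch 1 gave PMN-MDSC age 0 higher, M-MDSC age 13 higher and adults 0 and 0. In batch 2 they gave PMN-MDSC age 1 higher, M-MDSC age 1 and 29, the difference 5 and 5, adults 41 and 1, and newborns 5 lower. Without the batch 1 PMN-MDSC libraries they gave PMN-MDSC age 1 and 23, M-MDSC age 0 higher, the difference 7 higher, and adults 3 and 1. Without the 100 most abundant other genes the shares were 2.02%, 1.00%, 2.62% and 2.85%.

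Leaving out 1 library gave, for PMN-MDSC age, 2 to 3 higher and 32 to 47 lower; for M-MDSC age, 1 to 15 higher and 0 to 7 lower; and for the difference, 15 to 35 higher and 0 to 1 lower. It gave 1 to 18 higher and 2 to 5 lower in adults, and 43 to 56 higher and 0 to 1 lower in newborns. The shares ranged from 1.58% to 1.71%, 0.701% to 0.726%, 1.77% to 2.33% and 2.12% to 2.35%.

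The sign changes of called values were as follows. In batch 2 alone M-MDSC age became 10.68 for Rps6, -0.97 for Rpl39, -0.78 for Rps20 and -0.81 for Rpl8, the difference 10.73 for Rps6, the adult comparison -11.85 for Rps6 and the newborn comparison -0.11 for Rpl39. Rpl38 in newborns became -7.96 without the batch 1 PMN-MDSC libraries. With named pseudogenes and also with families, Rps6 became -0.75 (PMN-MDSC age), 0.92 (difference) and 1.38 (newborn), and Rpl17 -0.18 (M-MDSC age). Rpl15 in adults became 0.43 and 0.58. With families Rps27 became -1.08 (PMN-MDSC age), Rpl5 1.16 (difference) and 1.02 (newborn) and Rpl35 1.35 (difference). The cause was not tested, beyond the added counts of the sums. Depth limits batch 1 most, where 3 counts are up to 3.29 CPM.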

Other observations

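Ribosomal protein genes were measured beside the machinery that makes ribosomal RNA, and the biogenesis genes also differed in their age effect. In edgeR's test of the difference, 24 of 77 biogenesis genes were called higher in M-MDSC minus PMN-MDSC and 1 lower, beside 6.61% and 11.5% of all genes, with a median of 0.99 against -0.06 over all genes. Mybbp1a had a difference of 1.79 (SE 0.22, adjusted p = 1.88e-05) and Npm1, a nucleolar chaperone, of 1.55 (SE 0.37, adjusted p = 0.00686). Of 19 genes of RNA polymerase I, 4 were called higher and 0 lower. For both lists the difference was tested only in the fit of all libraries, so whether these calls hold in other fits was not tested. Of the members, 22 were called higher in that fit. Without the batch 1 PMN-MDSC libraries 5 were, beside 1.35% of all genes. In batch 2 alone, which has 1 adult M-MDSC library, the members' median difference was 0.12, against 0.57 over all genes. In M-MDSC itself 7 biogenesis genes were higher and 6 lower in newborns, below the 15.9% and 14.3% of all genes, with a median of -0.01, and Ddx21 was lower (-0.87, SE 0.17, adjusted p = 0.000954).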
